A study of Mus musculus with 2 samples.

Results

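The DNA replication and nucleotide supply genes described here are 49 genes of CE1-4, a mouse prostate cancer cell line, among 23420 gene symbols in a table of read counts. They were chosen by a fixed list of symbols that covers origin recognition and licensing, the replicative helicase, the polymerases, the sliding clamp and its loader, the supply of deoxynucleotides and the copying of chromatin, and all 49 had a row. RNA was sequenced from 1 library of cells given prostaglandin E2 (PGE2) over 6 h and from 1 library of untreated cells. The labels give neither a dose nor a vehicle, no culture time for the untreated cells, and nothing on whether the line is a clone. The series title ties the work to COX-2, an enzyme on the route to PGE2, and to prolactin in tumor and stroma.

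A cell copies its DNA in steps. The origin recognition complex marks start sites, and Cdc6 and Cdt1 load the MCM2-7 ring there in G1. In S phase Cdc45 and the GINS complex turn that ring into the active helicase, DNA polymerases follow behind it on the clamp PCNA, and ribonucleotide reductase and thymidylate synthase keep up the deoxynucleotides they use. Many of these genes are transcribed under E2F factors at the passage from G1 into S phase, so in a growing tumor line they report on cycling cells.

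With 1 library in each group no difference between conditions can be tested, and the values compare these libraries. Levels are given as CPM, which puts the counts of both libraries on 1 scale, with exact Poisson intervals. The log2 ratio is PGE2 over untreated, with a Clopper-Pearson interval at 95%. Both intervals cover counting error only, and sequencing reads without molecular identifiers are not independent molecules. The PGE2 library held 17582808 counts and the untreated library 16908429, so that 1 CPM stood for 17.6 counts and 16.9 counts. Genes at 1 CPM or more in either library, 11387 in all, counted as measured. Every one of the 49 replication genes passed that filter, the scarcest in the untreated library being Orc1 at 4.03 CPM. In a bulk sample fewer cells of a kind and less RNA per cell cannot be told apart. Of 8 markers of proliferating cells all 8 were measured, summing to 1777 CPM in the PGE2 library and 1672 CPM in the untreated library. For 4 of them (Mki67, Top2a, Ccna2 and Bub1) the interval lay above a ratio of 1, against 6.61% of all measured genes. That share rises with counts. It was 32.0% at summed counts of 10000 to 30000, where Mki67 and Top2a lay. It was 14.2% at 3000 to 10000 (Ccna2) and 5.06% at 1000 to 3000 (Bub1). The part of these markers in the values below was not tested. Among the luminal markers Pbsn had 0 counts in both libraries. For 3 luminal markers, Krt18, Krt19 and Cdh1, the interval lay above 1. Among measured genes with like counts the share was 32.0% for Krt18 and Krt19 and 14.2% for Cdh1. The 7 fibroblast markers summed to 10.9 CPM with PGE2 and 13.4 CPM untreated. The leukocyte, endothelial and erythroid lists each summed to under 5 CPM in both libraries.

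The promoters of these genes carry a sequence feature that the choice of symbols did not use. RefSeq promoter windows on GRCm38.p6, from 250 bases before to 50 bases after a start site, were matched by symbol for 41 of the 49 genes, giving 52 windows of 300 bases. They were searched on both strands for TTTCCCGC, TTTCGCGC, TTTGCCGC and TTTGGCGC, the common forms of the E2F element. At least 1 match lay in a window of 17 of the 41 replication genes (41.5%), against 427 of 8492 measured genes with a window (5.03%) and 744 of all 32851 windows (2.26%). The median GC content of the windows was 60.7% for the replication genes and 61.0% for the measured genes, so base composition was close. The 17 genes were Cdc6, Cdt1, Dnmt1, Gins3, Lig1, Mcm3, Mcm5, Mcm6, Mcm7, Orc1, Orc3, Pola1, Pold1, Pold3, Pole2, Rfc3 and Uhrf1. A match describes letters in a window and is not evidence that a factor binds there.

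The windows of 4 subunits of the MCM ring are shown because each held 2 or more matches, in capitals, in some cases overlapping. All are printed 5′ to 3′ on the strand of the gene, so a match to the opposite strand appears as its reverse complement. Mcm3 lies at chr1:20820263-20820562 on the minus strand, Mcm5 at chr8:75109259-75109558 on the plus strand, Mcm6 at chr1:128359656-128359955 on the minus strand and Mcm7 at chr5:138171834-138172133 on the minus strand.
Mcm3: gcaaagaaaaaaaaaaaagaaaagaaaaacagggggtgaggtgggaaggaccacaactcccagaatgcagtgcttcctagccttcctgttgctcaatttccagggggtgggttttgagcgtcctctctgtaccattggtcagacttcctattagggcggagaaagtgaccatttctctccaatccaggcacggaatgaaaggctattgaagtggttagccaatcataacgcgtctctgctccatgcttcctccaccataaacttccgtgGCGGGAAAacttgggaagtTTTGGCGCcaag
Mcm5: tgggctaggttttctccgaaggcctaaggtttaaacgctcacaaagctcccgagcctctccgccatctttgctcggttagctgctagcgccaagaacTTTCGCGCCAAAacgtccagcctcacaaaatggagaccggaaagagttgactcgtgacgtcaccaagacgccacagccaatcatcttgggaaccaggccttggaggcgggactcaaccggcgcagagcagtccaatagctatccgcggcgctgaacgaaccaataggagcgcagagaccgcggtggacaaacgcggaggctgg
Mcm6: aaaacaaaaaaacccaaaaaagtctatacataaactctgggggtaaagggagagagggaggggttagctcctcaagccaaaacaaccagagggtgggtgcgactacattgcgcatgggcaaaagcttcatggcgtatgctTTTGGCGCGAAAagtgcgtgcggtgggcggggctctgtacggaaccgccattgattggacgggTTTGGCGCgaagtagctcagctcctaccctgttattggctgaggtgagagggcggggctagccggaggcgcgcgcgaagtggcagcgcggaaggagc
Mcm7: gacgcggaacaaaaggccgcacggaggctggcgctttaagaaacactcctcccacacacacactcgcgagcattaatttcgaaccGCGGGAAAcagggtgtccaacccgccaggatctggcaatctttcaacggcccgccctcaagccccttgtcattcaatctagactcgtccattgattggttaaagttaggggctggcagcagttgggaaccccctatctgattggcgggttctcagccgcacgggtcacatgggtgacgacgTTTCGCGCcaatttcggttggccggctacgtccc

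In Mcm3 both matches lay after the start site, with first bases 20 and 39 bases into the transcript. Mcm6 had an overlapping pair beginning 110 and 106 bases before the start site and a single match 47 bases before it. For 5 of the other 13 genes, picked as examples from licensing, helicase activation, polymerase and methylation copying, the match is shown in capitals with 10 bases on either side, to let the flanks be compared. Cdc6 is on the plus strand at chr11:98908003-98908030, Cdt1 on the plus strand at chr8:122568037-122568064, Gins3 on the plus strand at chr8:95633508-95633535, Pola1 on the minus strand at chrX:93632276-93632303 and Uhrf1 on the plus strand at chr17:56304118-56304145.
Cdc6: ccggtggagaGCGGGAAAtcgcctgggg
Cdt1: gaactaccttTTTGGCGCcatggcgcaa
Gins3: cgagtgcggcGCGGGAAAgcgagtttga
Pola1: tcatcacaggGCGCCAAAtgcactcccg
Uhrf1: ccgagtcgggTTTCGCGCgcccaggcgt

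Pcna had no match to the E2F forms in its window at chr2:132253131-132253430 on the minus strand. It is shown because Pcna had the ratio farthest from 1 relative to its counting interval. The capitals mark the one CCAAT box, read from the opposite strand, whose first base lay 87 bases before the start site.
Pcna: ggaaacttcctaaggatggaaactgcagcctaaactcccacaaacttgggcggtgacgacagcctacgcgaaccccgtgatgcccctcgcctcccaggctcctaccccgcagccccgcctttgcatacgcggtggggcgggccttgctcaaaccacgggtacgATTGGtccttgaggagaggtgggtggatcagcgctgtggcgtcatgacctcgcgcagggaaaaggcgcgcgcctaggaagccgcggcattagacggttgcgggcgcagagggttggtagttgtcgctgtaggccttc

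CCAAT was found in windows of 26 of the 41 replication genes (63.4%), against 3678 of 8492 measured genes (43.3%) and 12289 of all windows (37.4%). The cell cycle homology element TTTGAA was in 6 of the 41 (14.6%), against 13.8% of measured genes and 17.9% of all windows. The full cAMP response element TGACGTCA, named here because PGE2 receptors can raise cAMP, was in 2 of the 41 (4.88%), against 3.71% of measured genes and 1.79% of all windows. Those 2 genes were Mcm5, where it began 99 bases before the start site, and Orc5, where it began 69 bases before it.

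The PGE2 and untreated libraries differed little across the replication genes, and most of the small differences were toward higher levels with PGE2. The ratio was above 1 for 36 of 49 genes (73.5%), against 49.4% of all measured genes. The median log2 ratio was 0.06 over the 49 genes, with a range of -0.17 to 0.36, against a median of -0.0014 over all 11387 measured genes. The interval lay above 1 for 5 genes, Pcna, Pola1, Orc4, Orc5 and Dnmt1, and below 1 for none of the 49. Among all measured genes 6.61% had an interval above 1 and 5.65% an interval below 1. Abundant genes have narrow intervals, so the share above 1 was also taken in bands of total counts. The 5 genes are 10.2% of the 49, against a background of 6.56%, or 3.21 genes, when the bands are weighted as the 49 genes fill them. The count of 5 is therefore near the background and is not read as a result about the group. None of the 49 reached a 2-fold difference, against 0.307% of all measured genes that did so with an interval excluding 1. For all 49 the whole interval lay inside a 2-fold difference either way, and for 46 it lay inside a 1.5-fold difference. Of all 11387 measured genes, 10519 and 9099 did so. Of the 10033 measured genes with 100 to below 30000 summed counts, the range that holds the 49, 9964 and 8973 did so. These counts are therefore not read as a result about the group. A ratio within 1.1-fold was found for 37 (75.5%), against 71.4% of all measured genes.

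**Figure D1:**
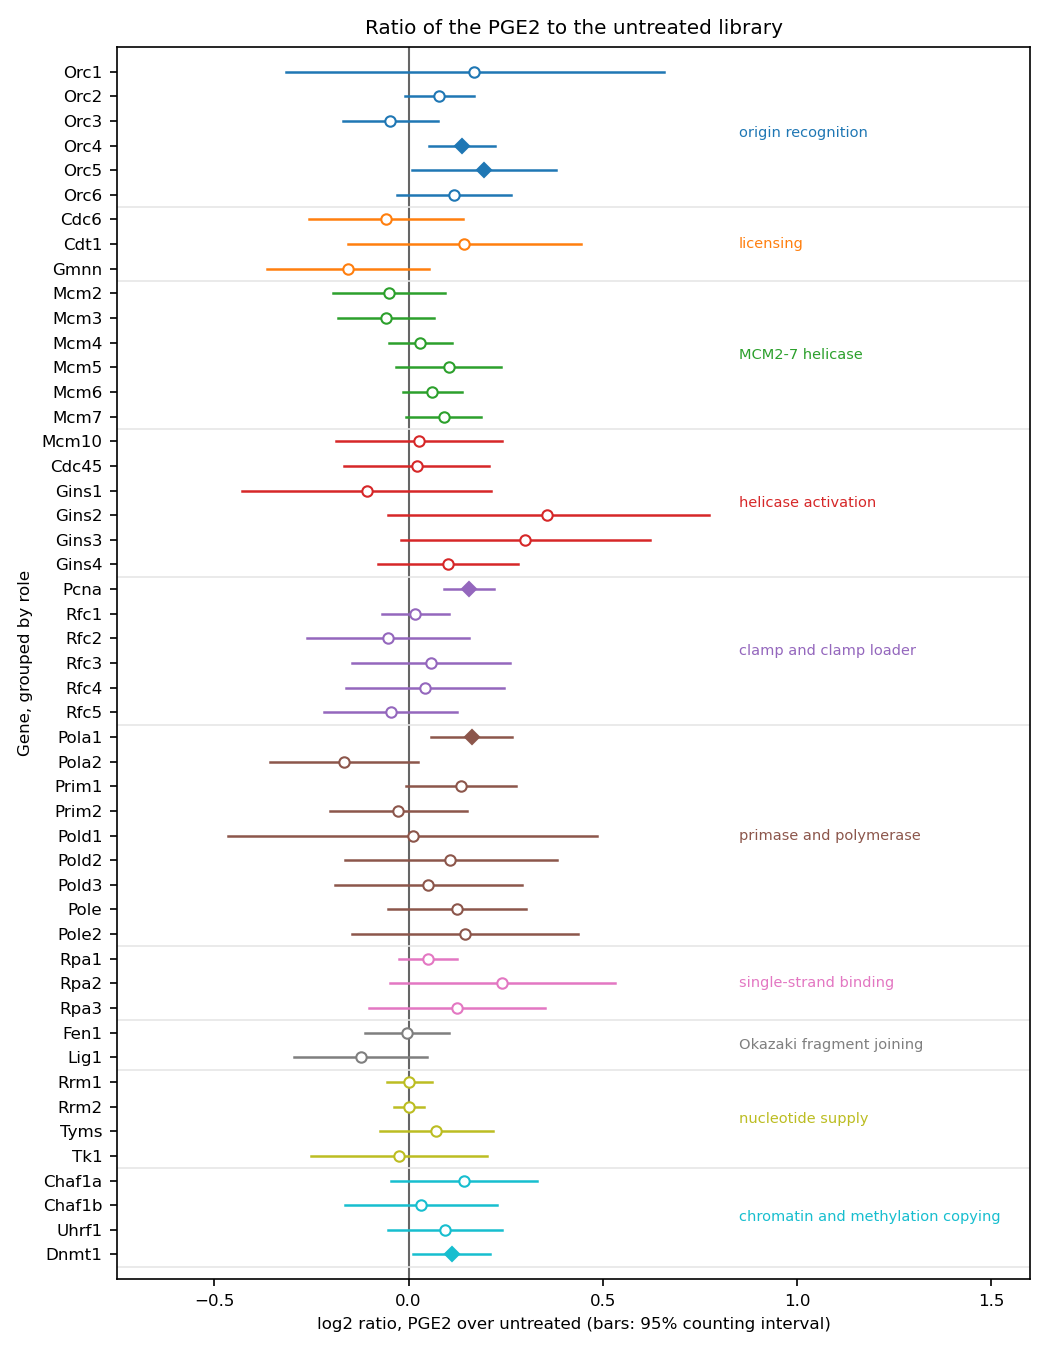
Log2 ratio of the PGE2 to the untreated library (horizontal axis) for the 49 genes by role (vertical axis), 1 library per group. Bars are 95% counting intervals and filled diamonds mark the 5 genes whose interval lies above a ratio of 1. No interval reaches 1 on the log2 scale in either direction.

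The spread between the libraries was larger than counting error for abundant genes. Among 1885 measured genes whose summed counts lay between 3000 and 10000, the robust SD of the log2 ratio was 0.063, against a median counting error of 0.042. In the band from 300 to 1000 counts, which holds 20 of the 49 genes, these values were 0.13 and 0.12. Set against the 95% normal range about a ratio of 1 that this SD gives in each band of counts, 4 replication genes lay above the range, Pcna, Pola1, Orc4 and Gins3. Of all measured genes 2.8% lay above it by the same rule. The range is centred on a ratio of 1, while the median log2 ratio was 0.013 in the band from 3000 to 10000 counts, which holds Pcna, Pola1 and Orc4. No share by count band was taken for this rule, so the count of 4 is not read as a result about the group.

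**Figure D2:**
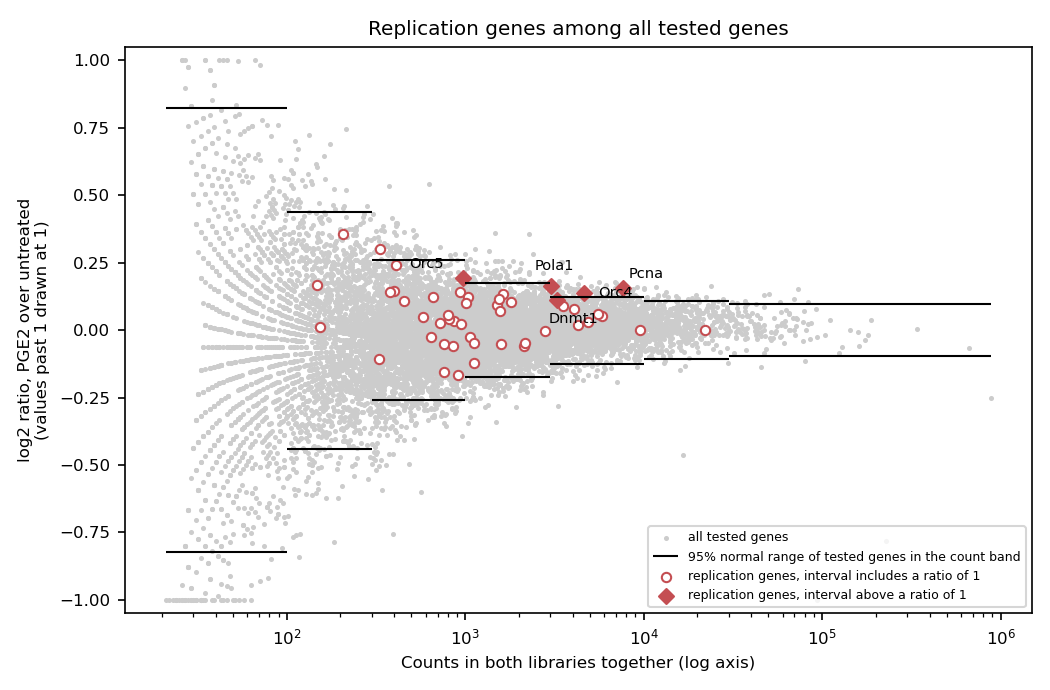
Log2 ratio of PGE2 over untreated (vertical axis) against counts in both libraries together (horizontal log axis) for 11387 measured genes in grey and the 49 replication genes in red. Black lines mark the 95% normal range from the robust SD of the genes in each count band. Most red points lie above 0 but inside the lines, and 4 lie above them.

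Origin recognition and licensing came first in the order of replication and held 2 of the 5 genes. Orc4, a subunit of the origin recognition complex on chromosome 2 from 48902824 to 48950277 on the minus strand, had 2475 counts in the PGE2 library and 2152 in the untreated library. That is 140 CPM (135 to 146) with PGE2 and 128 CPM (122 to 133) untreated, a log2 ratio of 0.14 (0.05 to 0.22). Orc5, which joins Orc4 in the ATPase core of the complex (chromosome 5, 22486485 to 22550429, minus strand), had 531 counts with PGE2 and 444 untreated, a log2 ratio of 0.19 (0.01 to 0.38). Both differences exceeded counting error, that of Orc5 narrowly, and Orc5 lay inside the 95% range of genes with like counts. Orc1, the subunit that is degraded in S phase in human cells, was the scarcest of the complex, with 80 counts in the PGE2 library and 68 in the untreated library. Its log2 ratio of 0.17 had an interval from -0.31 to 0.66, too wide to tell the libraries apart. Orc2 had 2150 counts with PGE2 and 1946 untreated (0.08, -0.01 to 0.17), and Orc6 had 821 and 724 counts in the same order (0.12, -0.03 to 0.26). Orc3 alone in the complex had a ratio below 1, at 1089 counts with PGE2 and 1076 untreated (-0.05, -0.17 to 0.08). The median log2 ratio of the 6 subunits was 0.13.

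The ratios of the 3 licensing genes lay on both sides of 1. Cdt1, the MCM loader that is destroyed in S phase, had 202 counts in the PGE2 library and 175 in the untreated library (log2 ratio 0.14, -0.16 to 0.44). Gmnn encodes geminin, the inhibitor that binds Cdt1, and had 367 counts with PGE2 and 391 untreated (-0.16, -0.37 to 0.05). Cdc6, the ATPase that loads MCM2-7 together with Cdt1, had 426 counts with PGE2 and 424 untreated (-0.06, -0.25 to 0.14). All of these intervals include a ratio of 1. Cdt1 relative to Gmnn, per length of exon, stood at 0.257 in the PGE2 library and 0.209 in the untreated library.

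The MCM2-7 subunits form 1 ring of unlike proteins, and their RNA levels were close between the libraries. Mcm2 had 799 counts with PGE2 and 791 untreated (log2 ratio -0.05, -0.19 to 0.09), and Mcm3 had 1075 with PGE2 and 1071 untreated (-0.06, -0.18 to 0.06). The other subunits were on the higher side. Mcm7 had 1872 counts in the PGE2 library and 1682 in the untreated library (0.09, -0.01 to 0.19), and Mcm5 had 950 and 846 in the same order (0.10, -0.03 to 0.24). For Mcm6 the counts were 2888 with PGE2 and 2647 untreated (0.06, -0.02 to 0.14), and for Mcm4 they were 2522 with PGE2 and 2362 untreated (0.03, -0.05 to 0.11). Every interval of the ring included a ratio of 1, and all 6 ratios lay within 1.1-fold.

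Although they enter 1 ring, the MCM subunits differed in level, which is compared between genes as CPM per kb of exon. Mcm4 was highest at 39.9 CPM per kb with PGE2 and 39.0 CPM per kb untreated, and Mcm2 lowest at 6.52 CPM per kb with PGE2 and 6.74 CPM per kb untreated. The order Mcm4, Mcm6, Mcm7, Mcm3, Mcm5, Mcm2 was the same in both libraries, and also when the longest annotated transcript replaced the union of exons as the length. By union of exons the highest level was 6.12 times the lowest in the PGE2 library and 5.79 times in the untreated library. These factors are much smaller by longest transcript. Mcm2 has a union of 6956 bases and a longest transcript of 3494 bases, while both lengths are 3589 bases for Mcm4. Union lengths include every annotated isoform, so the level of a gene with long minor isoforms is understated.

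**Figure D3:**
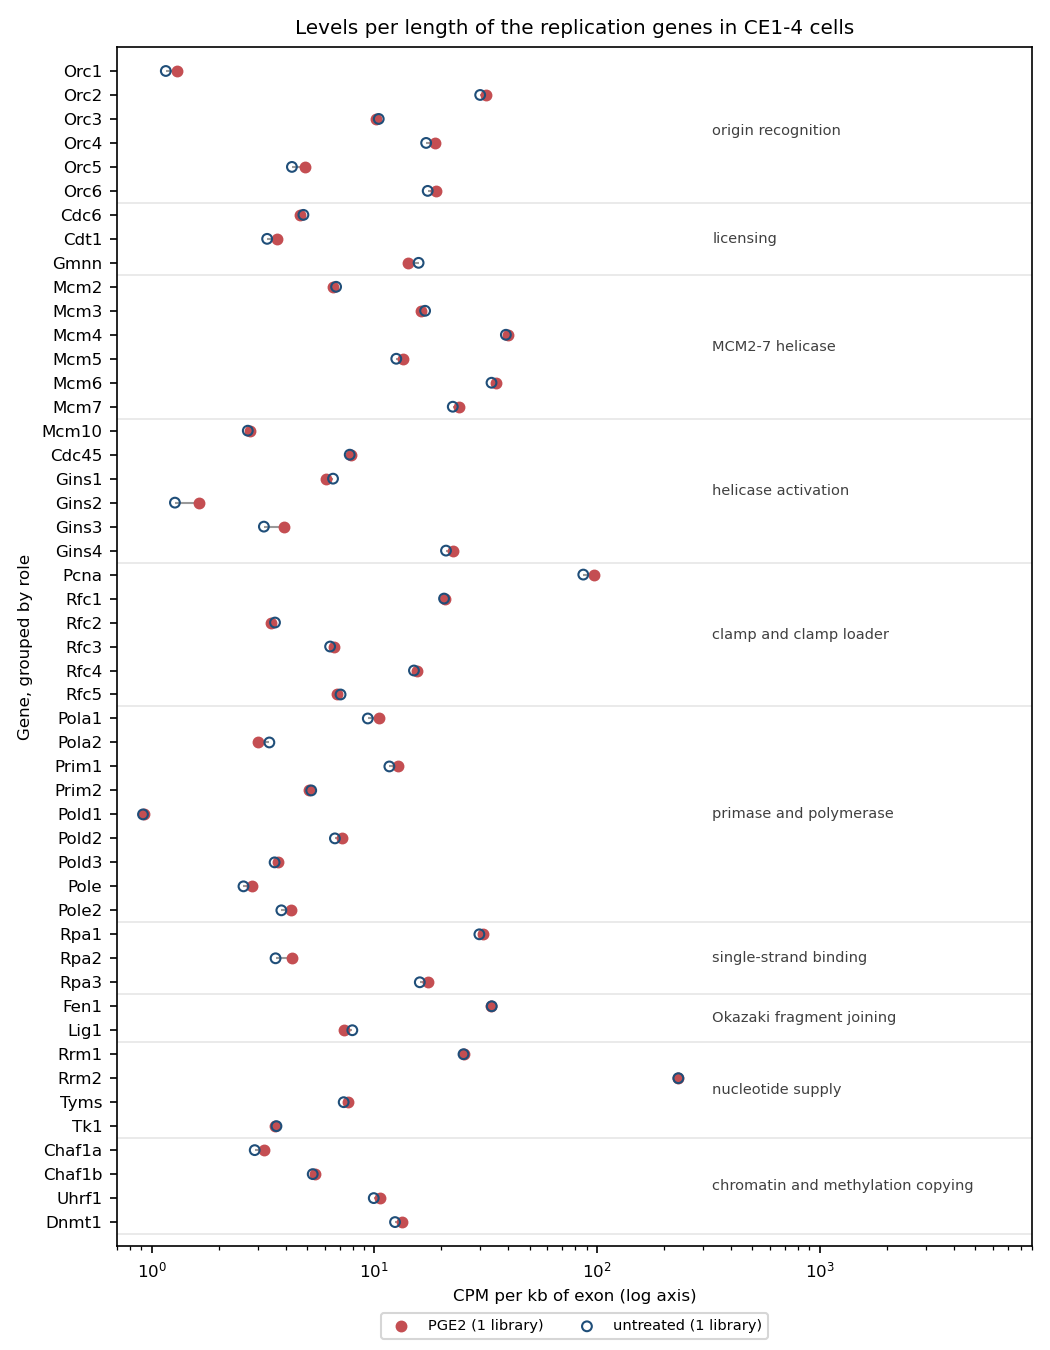
Level of each of the 49 genes in CPM per kb of exon (horizontal log axis) in the PGE2 library (filled red) and the untreated library (open blue), grouped by role. Differences between genes, from 0.922 CPM per kb for Pold1 to 232 CPM per kb for Rrm2 with PGE2, are far wider than those between libraries.

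Genes that turn the loaded ring into the active helicase included the 2 highest ratios of the whole group, both in scarce transcripts. Gins2, a subunit of the GINS complex (chromosome 8, 120578633 to 120589304, minus strand), had 118 counts with PGE2 and 88 untreated, a log2 ratio of 0.36 (-0.05 to 0.77). Gins3, another GINS subunit, had 188 counts with PGE2 and 146 untreated (0.30, -0.02 to 0.62). Neither interval excluded a ratio of 1. Exons of Gse1 on the opposite strand cover 67.3% of the exon bases of Gins2. Gse1 had 121 counts in the PGE2 library and 149 in the untreated library (-0.36, -0.72 to -0.01), and the sources used here do not say whether counting used the strand. The part of that overlap in the ratio of Gins2 was not tested. Gins1 had 162 counts with PGE2 and 167 untreated (-0.11, -0.43 to 0.21), and Gins4 had 536 with PGE2 and 478 untreated (0.10, -0.08 to 0.28). The 4 GINS subunits thus lay on both sides of a ratio of 1. Cdc45, the partner of GINS and MCM2-7 in the helicase, had 487 counts with PGE2 and 459 untreated (0.02, -0.17 to 0.21). Mcm10, which acts when the helicase starts to unwind, had 374 counts with PGE2 and 351 untreated (0.03, -0.19 to 0.24).

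Pcna, encoding the sliding clamp that holds polymerases on DNA (chromosome 2, 132249162 to 132253314, minus strand), had the lower interval bound farthest above a ratio of 1 among the 49 genes. It had 4096 counts in the PGE2 library and 3517 in the untreated library, 232 CPM (225 to 240) with PGE2 and 209 CPM (202 to 216) untreated. The log2 ratio of 0.16 (0.09 to 0.22) lay above the 95% range of genes with like counts, as did those of Pola1, Orc4 and Gins3. Its level of 96.8 CPM per kb with PGE2 and 86.9 CPM per kb untreated was second only to that of Rrm2 among the 49 genes in both libraries. For the loader that opens the clamp every interval included a ratio of 1. Rfc1, its large subunit, had 2213 counts with PGE2 and 2091 untreated (0.02, -0.07 to 0.10). The small subunit genes Rfc2, Rfc3, Rfc4 and Rfc5 had between 384 and 563 counts with PGE2 and between 381 and 556 untreated, with log2 ratios from -0.05 to 0.06.

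Of the 9 polymerase and primase genes 1 had an interval above 1. Pola1, the catalytic subunit of polymerase alpha, which starts each new strand (chromosome X, 93304767 to 93632155, minus strand), had 1628 counts with PGE2 and 1391 untreated. These are 92.3 CPM (87.9 to 96.9) with PGE2 and 82.5 CPM (78.2 to 86.9) untreated, a log2 ratio of 0.16 (0.06 to 0.27). Its accessory subunit gene Pola2 had the lowest ratio of the whole group, with 441 counts with PGE2 and 473 untreated (-0.17, -0.36 to 0.02). The primase subunit gene Prim1, which makes the RNA primer, had 876 counts with PGE2 and 763 untreated (0.13, -0.01 to 0.28). Prim2, its partner, had 536 with PGE2 and 522 untreated (-0.03, -0.20 to 0.15). The genes of this 1 enzyme complex therefore lay on both sides of a ratio of 1, and the interval of Pola1 alone excluded it. Pole, the catalytic subunit of the leading-strand polymerase, had 555 counts with PGE2 and 487 untreated (0.12, -0.05 to 0.30), and Pole2 had 215 with PGE2 and 186 untreated (0.14, -0.15 to 0.44). Pold1, the catalytic subunit of the lagging-strand polymerase, had the lowest level per length of the 49, at 0.922 CPM per kb with PGE2 and 0.915 CPM per kb untreated, from 79 and 75 counts. Its partners Pold2 (0.11, -0.16 to 0.38) and Pold3 (0.05, -0.19 to 0.29) had intervals that included a ratio of 1.

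The 3 subunit genes of RPA, which coats single-stranded DNA, all had ratios above 1 with intervals that included it. Rpa1 had 3023 counts with PGE2 and 2791 untreated (log2 ratio 0.05, -0.02 to 0.13). Rpa2 had 225 with PGE2 and 182 untreated (0.24, -0.05 to 0.53), and Rpa3 had 350 with PGE2 and 307 untreated (0.12, -0.10 to 0.35). Both genes that finish the lagging strand had ratios below 1 with the scaling used throughout. For Fen1 the side depended on that choice, with log2 ratios of 0.0036 to 0.0041 under DESeq2, upper quartile and total count scaling. Fen1, the flap nuclease, had 1436 counts with PGE2 and 1377 untreated (-0.0038, -0.11 to 0.10), and Lig1, the ligase, had 551 with PGE2 and 574 untreated (-0.12, -0.29 to 0.05). Exons of Gm10143, annotated as antisense, cover 78.8% of the exon bases of Fen1.

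Nucleotide supply held the most abundant transcript and the ratios nearest to 1. Rrm2, the small subunit of ribonucleotide reductase (chromosome 12, 24708241 to 24714146, plus strand), had 11352 counts with PGE2 and 10849 untreated. Its level was 644 CPM (632 to 656) with PGE2 and 643 CPM (631 to 656) untreated, a log2 ratio of 0.0011 (-0.04 to 0.04). Rrm1, the large subunit, had 4895 counts with PGE2 and 4676 untreated (0.0018, -0.06 to 0.06). The side of both ratios depended on the processing. Scaled by total counts without Rn45s, Lars2 and Malat1, the log2 ratios were -0.0078 for Rrm2 and -0.0071 for Rrm1. With the abundance trend subtracted they were -0.021 for Rrm2 and -0.017 for Rrm1. Per length of exon, Rrm2 stood at 9.22 times Rrm1 in the PGE2 library and 9.22 times in the untreated library. This factor depends on the length used and is smaller by longest transcript. Rrm1 has a union of exons of 11012 bases and a longest transcript of 5475 bases, against 2771 and 2193 bases for Rrm2. Among 11320 measured genes with a length, Rrm2 ranked 159 in the PGE2 library and 158 in the untreated library. Tyms, thymidylate synthase, had 823 counts with PGE2 and 749 untreated (0.07, -0.07 to 0.22). Tk1, the thymidine kinase of the salvage route, had 328 with PGE2 and 319 untreated (-0.02, -0.25 to 0.20).

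All 4 genes that copy chromatin and DNA methylation had ratios above 1. Dnmt1, the maintenance DNA methyltransferase (chromosome 9, 20907209 to 20959888, minus strand), had 1742 counts with PGE2 and 1543 untreated. This gave 98.8 CPM (94.2 to 104) with PGE2 and 91.5 CPM (87.0 to 96.2) untreated, a log2 ratio of 0.11 (0.01 to 0.21), beyond counting error but inside the 95% range of genes with like counts. Uhrf1, which brings Dnmt1 to newly copied DNA, had 798 counts with PGE2 and 715 untreated (0.09, -0.05 to 0.24). The histone chaperone subunit genes Chaf1a (0.14, -0.05 to 0.33) and Chaf1b (0.03, -0.16 to 0.23) had intervals that included a ratio of 1. Exons of Ubxn6 on the opposite strand cover 52.5% of the exon bases of Chaf1a. In all, 18 of the 49 genes share exon bases with another annotated gene, 4 of them (Orc2, Gins2, Fen1 and Chaf1a) over more than 25% of their exons.

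A wider list of 107 other genes of replication and nucleotide supply was set by role. Of these 106 were measured, 70 had a ratio above 1 (66.0%), and the median log2 ratio was 0.04, against -0.0014 over all measured genes. The interval lay above 1 for 13 (6.61% of all measured genes did) and below 1 for 3 (against 5.65%). Weighted by count bands, the background for these 106 genes was 8.24 genes above 1 and 6.4 below it. Neither these counts nor the counts by role below are read as a result about the genes. In purine synthesis 4 of 13 genes had an interval above 1, Gmps, which makes GMP (log2 ratio 0.11, 0.05 to 0.17), Adss (0.09, 0.03 to 0.16), Ppat, the first committed enzyme of the route (0.12), and Prps1 (0.12). Among 14 chromatin genes there were 3, Hat1, a histone acetyltransferase, with 1345 counts with PGE2 and 1057 untreated (0.28, 0.17 to 0.40), the remodeler Hells (0.11, 0.03 to 0.19) and the histone-binding Rbbp7 (0.09, 0.04 to 0.13). Among measured genes with like counts the share above 1 was 14.2% for Gmps, Adss and Hells. It was 5.06% for Ppat, Prps1 and Hat1, and 32.0% for Rbbp7. Pclaf, which binds PCNA, had 1504 counts with PGE2 and 1272 untreated (0.18, 0.07 to 0.29). The polymerase genes Pole3 (0.29, 0.01 to 0.56) and Poli (0.29, 0.01 to 0.58) were on the same side, as were Dbf4, the activator of the Cdc7 kinase (0.13, 0.03 to 0.24), the topoisomerase Top1 (0.09, 0.02 to 0.16) and Dctpp1, a nucleotide pyrophosphatase (0.35, 0.02 to 0.68). The 3 genes with an interval below 1 were Mcm9, a relative of the ring subunits that acts in repair, with 123 counts with PGE2 and 158 untreated (-0.42, -0.78 to -0.08), Poldip2 (-0.12, -0.23 to -0.02) and the thymidylate kinase Dtymk (-0.16, -0.31 to -0.01). Of these 16 calls, the ratios of 6 (Hat1, Dctpp1, Poli, Pole3, Dbf4 and Pclaf) also lay outside the 95% range of genes with like counts. Those of the 4 purine synthesis genes, Hells, Rbbp7, Top1 and the 3 lower genes lay inside it. None of the 5 pyrimidine synthesis genes had an interval that excluded 1, and Poln, with 1 count with PGE2 and 5 untreated, was below the filter.

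**Figure D4:**
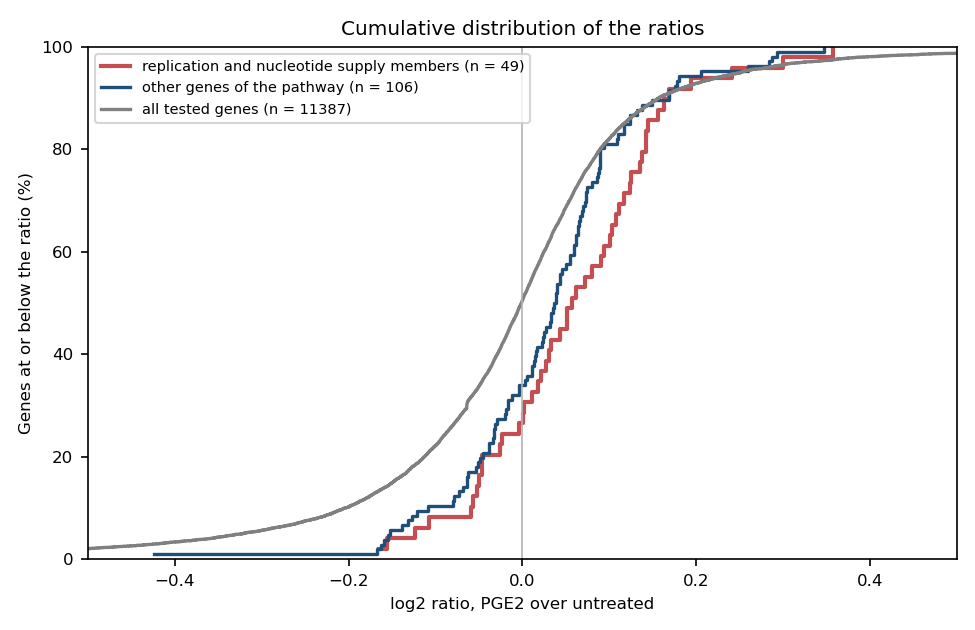
Percentage of genes (vertical axis) at or below each log2 ratio of PGE2 over untreated (horizontal axis) for the 49 replication genes in red, 106 other measured genes of the pathway in blue and 11387 measured genes in grey, 1 library per group. The red and blue curves lie to the right of the grey one at their medians of 0.06 and 0.04, against -0.0014.

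Ratios were also set beside the promoter letters, as a description. The 17 replication genes with an E2F form had a median log2 ratio of 0.09, and 13 of them a ratio above 1. The 24 with a window but no form had a median of 0.05, and 19 of them a ratio above 1. Over the measured genes the median was 0.02 for the 427 with a form, of which 58.1% had a ratio above 1, and -0.0015 for the others. With CCAAT, 24 of 26 replication genes had a ratio above 1, against 8 of 15 without it, while among measured genes with CCAAT the share was 50.9%. That last split was singled out after its values had been seen.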

How the data were processed

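The authors deposited 1 table of raw read counts per gene symbol, whole numbers without normalization, in 1 column per library. Per the labels' protocols, total RNA from silica columns was made into stranded total RNA libraries. Per the submitters' processing notes, the tools were Trimmomatic, TopHat2, Bowtie and HTSeq, without versions, and the build mm10. Annotation, strand setting and handling of shared reads: not given in the sources used here.

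Counts were scaled with TMM in edgeR 4.0.16 (R 4.3.3), with factors of 1.003 for the PGE2 and 0.997 for the untreated library. Log2 ratios used a prior of 0.5 counts, and intervals came from SciPy 1.17.1. With 1 library per group no test was run and no p-value is given. A gene with 0 counts could lie at up to 0.170 CPM with PGE2 or 0.178 CPM untreated, taken as 3 counts. Lengths and coordinates are from GENCODE M21, whose assembly GRCm38 is another name for mm10. Promoter windows are RefSeq's. For 2 listed genes an older symbol was used. The ratio and interval code was tested on simulated counts.

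The genes and lists were chosen with earlier results of these data known. Every member was to be accounted for, with full values where its interval excludes 1 and for Mcm2, Mcm5, Pcna, Rrm1, Rrm2, Tyms, Uhrf1 and Dnmt1. Other pathway genes were to be named if their interval excludes 1. Poln was named as the 1 below the filter. Marker lists for fibroblasts (3 of 7 measured) and basal cells (2 of 4) were also read. Alternatives were other scalings (DESeq2 1.42.0 among them), priors, minimums, subtracted trends and intervals. The values of 1 marker are not reported here.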

Additional observations from a re-analysis of the deposited data

How the results depend on the processing

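With 1 library per group no replicate could be left out, and no paired analysis was possible because each group holds 1 library. The median log2 ratio of the 49 genes ran from 0.05 to 0.07 over all alternatives, and the 537 single-gene values recomputed under them all stayed within their counting intervals. Changing the minimum or the interval leaves each ratio as it is, and another scaling shifts all genes nearly alike. That outcome for single genes was therefore largely fixed by the settings. Ratios above 1 numbered 34 to 37 of the 49 (34 of 47 at a minimum of 5 CPM), against 46.0 to 54.5% of all measured genes. Of the 49 genes, the number with an interval above 1 was 5 to 7 under the alternatives except for the 99% interval, where it was 3 (Orc4, Pcna and Pola1), and the spread of like-count genes, where it was 4. It was 0 below 1 and 0 past 2-fold under each. For the other pathway genes, 13 above and 3 below 1 became 6 and 0 with the 99% interval and 6 and 0 with the spread of like-count genes. Their count above 1 was 11 to 17 under the other alternatives, with 17 under total counts, upper quartile and DESeq2 scaling. Their count below 1 was 3 or 4 under those, except 1 after subtraction of the GC and length trend. Under that trend the interval of Orc5 came to include 1, at a log2 ratio of 0.18 against 0.19, and that of Mcm7 came to lie above 1. Of the 10 genes highest per length in the PGE2 library, 9 stayed among the highest 10 by longest transcript. Depth limits genes such as Orc1, Pold1 and Gins2, each with under 120 counts per library.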
